A study of Arabidopsis thaliana with 12 samples.

Results

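Wild-type Arabidopsis thaliana plants of the ecotype Col-0 were given either dexamethasone or β-estradiol, and the 3 dexamethasone arrays are set here against the 3 estradiol arrays. These 6 arrays, taken by their sample titles, are 6 of the 12 in the series. Seedlings stood on soil at 23 °C with 10 h of light and 14 h of dark, and RNA of their green tissue was measured at 3 weeks of age. The Col-0 dex group received 20 µg/ml dexamethasone and the Col-0 estr group 20 µM β-estradiol. The other 6 arrays hold a CHLD reduction line given the same dexamethasone and a CHLM overexpression line given the same β-estradiol, both in Col-0, with 3 arrays each. The labels call the arrays of a group biological replicates, give no time between treatment and harvest, and name no untreated plants, so a difference between the Col-0 groups cannot be assigned to either agent.

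Dexamethasone is a synthetic glucocorticoid and β-estradiol an animal sex hormone. Plants have no receptor of the animal type for either, and both are used in plant work because a transgene that carries such a receptor domain can be switched on with them. The wild type carries no such transgene, so Col-0 plants of both groups serve as the controls of the induced lines. A pair of stress gene groups recurs below. Plant defensins and thionins are small antimicrobial proteins, and some of their genes respond to jasmonate. Jasmonate is the hormone of wounding and of attack by insects and some fungi. Late embryogenesis abundant (LEA) proteins and dehydrins are hydrophilic proteins that accumulate in drying seeds and in leaves that lose water or become cold, in part through abscisic acid.

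All 22746 probe sets other than the AFFX controls were tested with limma on the deposited log2 signals, and a probe set is said to have changed where its adjusted p was below 0.05. CHLM, the gene overexpressed in one of the lines, had log2 signals of 11.55, 11.80 and 11.74 in Col-0 dex and of 11.71, 11.72 and 11.68 in Col-0 estr, against 14.48, 13.96 and 14.24 in the CHLM line. No measured gene reports which steroid a Col-0 plant received, so the treatment labels themselves could not be checked. The 10 measured markers of green tissue, among them RCA, PRK and LHCB4.1, averaged between 11.91 and 11.94 in Col-0 dex and between 11.85 and 11.89 in Col-0 estr. The 8 measured markers of other cell types averaged between 5.52 and 5.60 in Col-0 dex and between 5.56 and 5.65 in Col-0 estr, and 0 of the 18 markers changed (1 at an unadjusted p under 0.05 with limma). PYK10, a β-glucosidase best known from roots, was the brightest of those 8, at 11.90 ± 0.16 in Col-0 dex and at 11.97 ± 0.02 in Col-0 estr (SD, n = 3 each).

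One array stood apart, and the main results are therefore given with and without it. Col-0 estr replicate 1 was correlated at 0.9898 with replicates 2 and 3 across probe sets, while replicates 2 and 3 were correlated at 0.9974 with each other. Its correlation with the 3 Col-0 dex arrays was higher, between 0.9928 and 0.9938. That range was no higher than for replicates 2 and 3, which were correlated with the dex arrays at 0.9926 to 0.9942. Against the Col-0 dex mean, 180 probe sets differed at least 2-fold in replicate 1, 121 in replicate 2 and 128 in replicate 3. The lowest correlation within any other group was 0.9944. At least 2-fold differences between replicate 1 and the mean of replicates 2 and 3 were seen for 296 probe sets, 1.3% of those tested. For the other 11 arrays, set in the same way against the other 2 arrays of their own group, the number lay between 7 and 85.

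**Figure D1:**
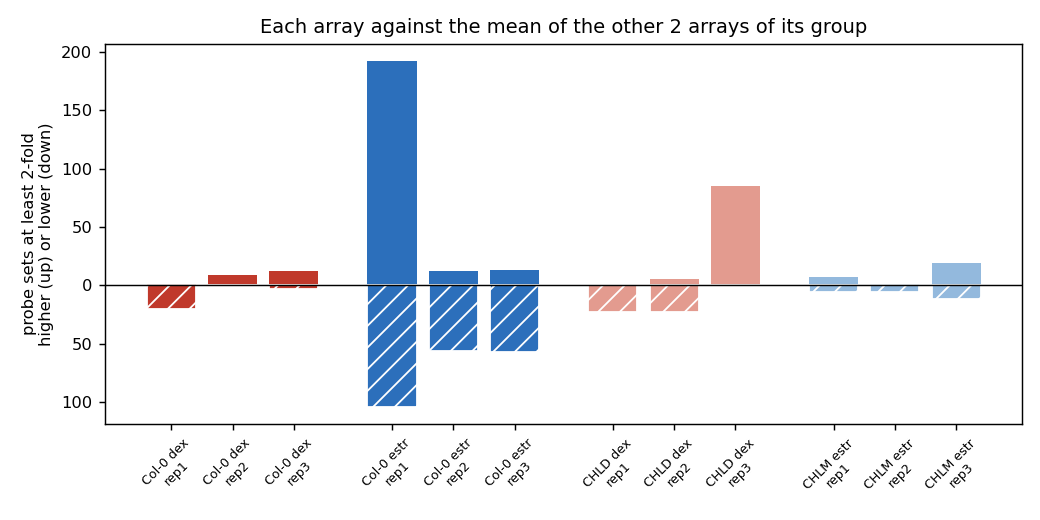
Number of probe sets at least 2-fold higher (upward bars) or lower (downward hatched bars) in each of the 12 arrays than in the mean of the other 2 arrays of its group. Col-0 estr rep1 has the longest bars in both directions, with 192 higher and 104 lower.

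With all arrays in the fit, few transcripts separated dexamethasone from estradiol plants, and the named ones included a pair of cell wall genes that moved in opposite directions. XTH19, a xyloglucan endotransglucosylase/hydrolase that remodels wall polymers, was 2.14-fold higher in Col-0 dex, and EXPB1, a β-expansin, a class of wall-loosening protein, was 1.66-fold lower. AT4G33980, kept here in the list of clock genes, was 2.06-fold higher. AT5G51950 was 1.69-fold higher and AT1G31690 was 2.06-fold lower. In total 11 of 22746 probe sets changed (0.0484%). Of these, 7 were higher in Col-0 dex (0.0308% of those tested) and 4 were lower (0.0176%). A fold of at least 2 was reached by 7 of the 11 (0.0308% of those tested), 5 upward and 2 downward. An unadjusted p under 0.05 was reached by 2407 probe sets (10.6%).

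XTH19 had log2 signals of 8.43, 8.43 and 8.57 in Col-0 dex and of 7.02, 7.70 and 7.42 in Col-0 estr. The groups did not overlap, and estr replicate 1 was the lowest of the 6 arrays. The log2 difference was 1.097 (SE 0.164, limma adjusted p = 0.0371), between means of 8.48 ± 0.08 and 7.38 ± 0.34 (SD, n = 3 each). EXPB1 had 6.40, 6.46 and 6.49 in Col-0 dex and 7.13, 7.16 and 7.25 in Col-0 estr. Its 3 estradiol arrays, replicate 1 included, lay within 0.12 of each other, and the difference was -0.73 (SE 0.106, limma adjusted p = 0.032).

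AT4G33980 had 5.47, 5.52 and 5.27 in Col-0 dex and 4.55, 4.40 and 4.19 in Col-0 estr, a difference of 1.04 (SE 0.129, limma adjusted p = 0.00678). Both lines lay below both Col-0 groups for this gene, with means of 3.77 in CHLD dex and 3.74 in CHLM estr. AT5G51950 had 4.88, 4.93 and 4.92 in Col-0 dex and 4.23, 4.05 and 4.19 in Col-0 estr, a difference of 0.75 (SE 0.0849, limma adjusted p = 0.00622). These are low signals on the scale of the arrays, whose values ran between 2.39 and 14.49. AT1G31690 had 6.26, 6.10 and 6.38 in Col-0 dex and 7.09, 7.29 and 7.49 in Col-0 estr, a difference of -1.04 (SE 0.164, limma adjusted p = 0.0371). Without estr replicate 1 the differences were 0.917 for XTH19, -0.755 for EXPB1, 1.125 for AT4G33980, 0.79 for AT5G51950 and -1.143 for AT1G31690, with limma adjusted p between 9.25e-04 and 0.00516. For none of these 5 genes did the 3 arrays of one group reach into the range of the other.

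**Figure D2:**
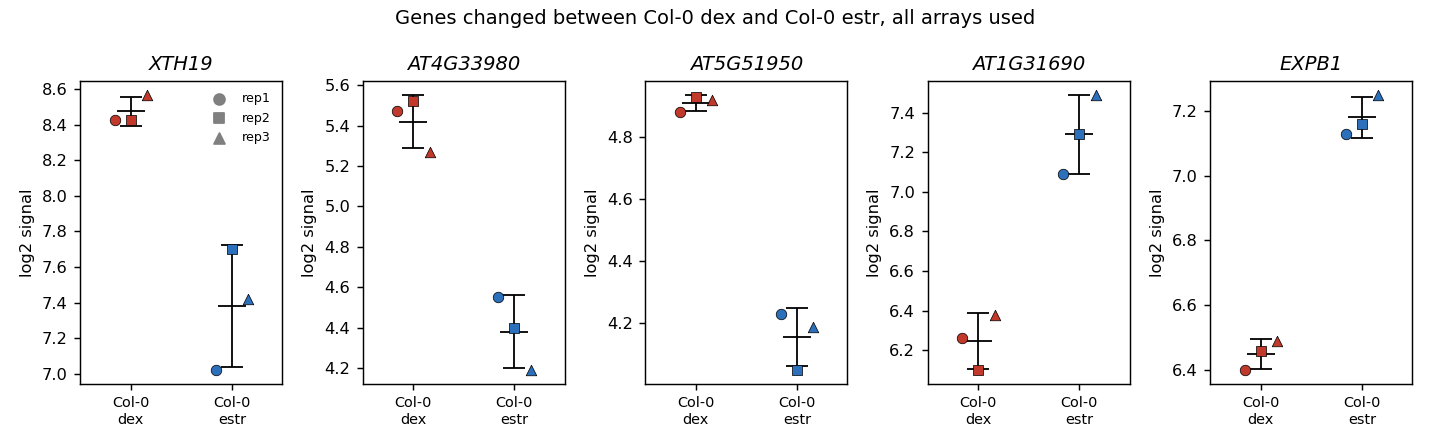
Log2 signal (y axis, a separate scale for each gene) of the 5 changed genes with a name of their own in the 3 Col-0 dex arrays (red, left) and the 3 Col-0 estr arrays (blue, right). Bars are means ± SD, and no gene has overlapping groups: XTH19, AT4G33980 and AT5G51950 are higher in Col-0 dex, AT1G31690 and EXPB1 lower.

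The other 6 changed probe sets had no single gene in the annotation used here. The one with the largest difference of all had 9.90, 10.44 and 9.56 in Col-0 dex and 11.72, 12.19 and 12.30 in Col-0 estr, 4.30-fold lower in Col-0 dex (limma adjusted p = 0.0371). The strongest of those that were higher in Col-0 dex differed by 2.54-fold and 2.42-fold. The groups did not overlap for any of the 11, a pattern that 14.9% of all probe sets showed.

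The total rested on single arrays. It was 4 without Col-0 dex replicate 1, 0 without replicate 2 and 5 without replicate 3, where limma still gave 1757 probe sets at an unadjusted p under 0.05 without replicate 2. It was 5 without Col-0 estr replicate 2 and 5 without replicate 3, and among arrays of the lines, which enter only the shared spread, 28 without CHLD dex replicate 2 and 21 without CHLM estr replicate 3. Without Col-0 estr replicate 1 it was 728. With one of the other 5 Col-0 arrays left out, the limma adjusted p reached 0.148 for XTH19, 0.167 for EXPB1 and 0.211 for AT1G31690, which was also at 0.0517 without CHLM estr replicate 1. For AT4G33980 it was 0.0618 without dex replicate 1 and 0.0882 without dex replicate 2, and for AT5G51950 it was 0.053 without dex replicate 2. XTH19 was at 0.0658 with only the 6 Col-0 arrays in the fit.

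Without estr replicate 1 the same comparison, now 3 arrays against 2, gave 728 changed probe sets (3.2%). These were 278 higher (1.22%) and 450 lower (1.98%) in Col-0 dex, with all 11 of the first fit among them in the same direction. A fold of at least 2 was reached by 106 of them (0.466% of those tested), 32 upward and 74 downward, and 360 had a gene of their own. The largest differences among genes with a name were those of jasmonate-responsive antimicrobial genes, which lay higher in estr replicates 2 and 3 than in every dex array. The genes described from this fit were picked after their values were seen, and their estradiol values rest on 2 arrays.

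PDF1.2, a plant defensin, had log2 signals of 5.14, 5.26 and 5.31 in Col-0 dex, and of 5.65, 9.38 and 9.34 in estr replicates 1, 2 and 3. Its close relative PDF1.2b had 5.08, 4.98 and 5.35 in Col-0 dex and 5.19, 9.20 and 9.42 in Col-0 estr. For PDF1.2b replicate 1 lay inside the range of the dex arrays, and for PDF1.2 it lay just above that range. Replicates 2 and 3 were far from all other arrays of the series, of which the highest was CHLD dex replicate 3 at 6.62 for PDF1.2 and at 5.90 for PDF1.2b. These sequences are so alike that a probe set for one may also report the other, so they may not be independent readings. With all arrays PDF1.2 was at a log2 difference of -2.89 (SE 0.737, limma adjusted p = 0.177), and without replicate 1 at -4.12 (SE 0.361, limma adjusted p = 5.7e-05). PDF1.2b was at -2.80 (SE 0.79, limma adjusted p = 0.214) with all arrays and at -4.17 (SE 0.324, limma adjusted p = 1.52e-05) without replicate 1.

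THI2.1, a thionin, was more variable among the dex arrays. It had 6.48, 8.40 and 6.08 in Col-0 dex and 6.48, 10.05 and 9.99 in Col-0 estr, so that replicate 1 equalled dex replicate 1. Without replicate 1 the difference was -3.03 (SE 0.592, limma adjusted p = 0.0131), a call that ended without dex replicate 1, estr replicate 2 or estr replicate 3 (adjusted p up to 0.151). In the lines THI2.1 was at 6.12, 8.41 and 7.99 in CHLD dex and at 4.16, 4.04 and 4.21 in CHLM estr, higher in CHLD dex by 3.37 (limma adjusted p = 0.0362). The direction there was opposite to that in Col-0, and genotype and agent cannot be told apart in that comparison.

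**Figure D3:**
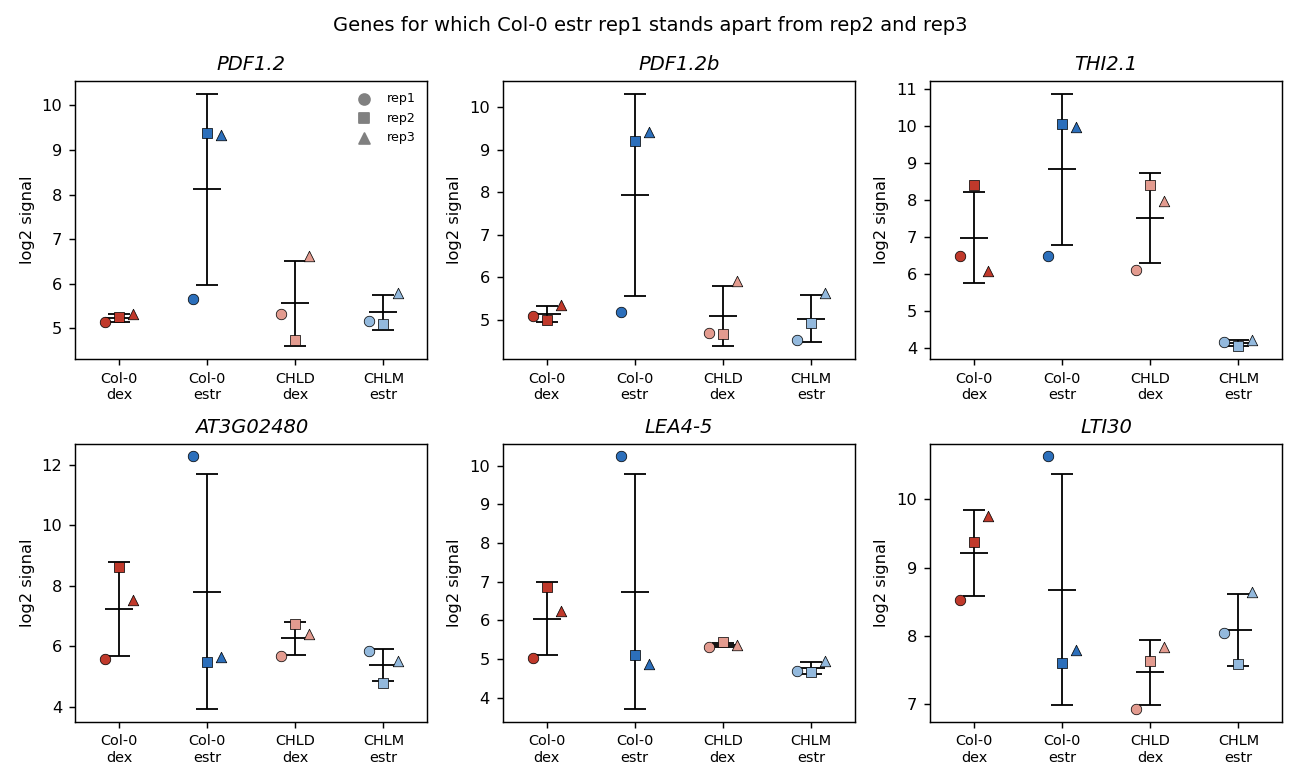
Log2 signal (y axis, a separate scale for each gene) in all 12 arrays, with Col-0 dex, Col-0 estr, CHLD dex and CHLM estr from left to right, symbols for replicate number and bars for mean ± SD. For the defensins PDF1.2 and PDF1.2b and the thionin THI2.1, Col-0 estr rep1 lies with the dex arrays and rep2 and rep3 lie above, whereas for AT3G02480, LEA4-5 and LTI30 rep1 is the highest of all 12 arrays.

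Some other genes with large differences without replicate 1 followed the same order of arrays, and others did not. AT3G16530 had 7.64, 7.48 and 8.09 in Col-0 dex and 7.87, 10.13 and 10.15 in Col-0 estr. AT4G16260 had 3.57, 3.88 and 3.98 in Col-0 dex and 4.04, 6.14 and 6.11 in Col-0 estr, and AT1G13470 had 3.35, 3.20 and 3.57 in Col-0 dex and 3.26, 4.97 and 5.09 in Col-0 estr. For these 3 genes replicate 1 lay inside the range of the dex arrays or just above it, and without it they were 5.29-fold, 4.98-fold and 3.15-fold lower in Col-0 dex (limma adjusted p = 3.03e-04, 0.00123 and 1.72e-04). UGT76B1, a glycosyltransferase that acts on defence signals, had 3.84, 3.89 and 3.91 in Col-0 dex and 4.08, 5.42 and 5.48 in Col-0 estr. JAL23, a jacalin-type lectin, had 6.74, 7.99 and 7.32 in Col-0 dex and 7.47, 9.06 and 9.03 in Col-0 estr. Both were lower in Col-0 dex without replicate 1, by 2.97-fold and 3.24-fold, and neither changed with it (limma adjusted p = 0.247 and 0.291). AT5G03350, AT1G47400 and AT3G22240 were 6.38-fold, 3.49-fold and 3.45-fold lower in Col-0 dex without replicate 1 (limma adjusted p = 0.00537, 0.019 and 0.00645). None of them changed with it (limma adjusted p = 0.1, 0.102 and 0.0522). In these genes replicate 1, at 10.46, 7.08 and 12.51, lay clearly above the highest dex array, at 9.76, 6.43 and 11.71.

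Among genes that were higher in Col-0 dex without replicate 1, COR27, a cold-regulated gene that acts in the circadian clock, had 6.21, 6.30 and 5.81 in Col-0 dex and 6.05, 4.43 and 4.25 in Col-0 estr. Its log2 difference was 1.77 (SE 0.16, limma adjusted p = 7.38e-05) without replicate 1, and 1.197 (SE 0.336, limma adjusted p = 0.214) with it. AT5G19120 had 9.25, 9.29 and 9.26 in Col-0 dex and 8.87, 8.19 and 8.31 in Col-0 estr, 2.02-fold higher without replicate 1 (limma adjusted p = 9.33e-04). For AT5G19120 replicate 1 was still below every dex array, whereas for COR27 it lay inside their range. PUB19, a U-box ubiquitin ligase, had 6.01, 6.95 and 6.89 in Col-0 dex and 8.70, 4.97 and 5.63 in Col-0 estr, so that replicate 1 exceeded every dex array. Its log2 difference was 1.317 (limma adjusted p = 0.0181) without replicate 1 and 0.18 (limma adjusted p = 0.958) with it. WSD1, a wax ester synthase, had 6.18, 6.17 and 6.26 in Col-0 dex and 6.02, 5.32 and 5.11 in Col-0 estr, a difference of 0.988 (limma adjusted p = 0.0116) without replicate 1 and of 0.72 (limma adjusted p = 0.259) with it.

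Replicate 1 took no part in the fit that called these 728 probe sets, so its position among them could be read from an array the calls did not use. It lay on the dex side of the midpoint between the dex mean and the mean of replicates 2 and 3 for 616 of the 728 (84.6%), against 59.4% of all probe sets. By direction, that was 216 of the 278 that were higher in Col-0 dex and 400 of the 450 that were lower. On a scale with replicates 2 and 3 at 0 and the dex mean at 1, its median position was 0.846 (quartiles 0.612 and 1.076). Since the 728 were chosen for a gap between the dex arrays and replicates 2 and 3, any array that does not share that gap is drawn toward the dex side, and the share is a description without a test.

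**Figure D4:**
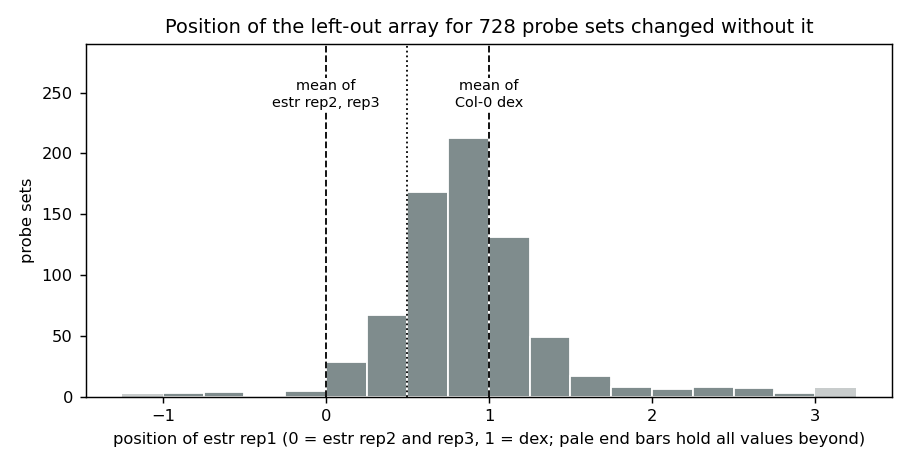
Distribution of the position of Col-0 estr rep1 for the 728 probe sets changed without it (x axis: 0 is the mean of estr rep2 and rep3, 1 the Col-0 dex mean; y axis: number of probe sets; the dotted line is the midpoint). The tallest bar, 213 probe sets, lies between 0.75 and 1, and 616 lie on the dex side of the midpoint.

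By contrast, replicate 1 lay on the dex side for 0 of the 11 probe sets that changed with all arrays, with a median position of 0.128. That fit used replicate 1, so an array on the dex side would have kept a probe set from passing.

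Replicate 1 was at least 2-fold higher than the mean of replicates 2 and 3 for 192 probe sets (0.844%) and at least 2-fold lower for 104 (0.457%). AT3G02480 led the higher set, which also held genes of LEA proteins and dehydrins. AT3G02480 was at 12.28 in replicate 1 and 5.49 and 5.63 in replicates 2 and 3, a 105-fold higher signal. The Col-0 dex arrays were at 5.57, 8.63 and 7.52, so that dex replicates 2 and 3 lay between estr replicate 1 and its fellow replicates, and dex replicate 1 did not. LEA4-5, a LEA protein, was at 10.24 in replicate 1 and at 5.10 and 4.87 in replicates 2 and 3 (38.2-fold), with 5.01, 6.87 and 6.23 in Col-0 dex. LEA18 was at 6.33 in replicate 1 and at 2.93 and 2.89 in replicates 2 and 3 (10.7-fold), with 2.96, 3.51 and 3.05 in Col-0 dex. In each of these 3 genes the dex arrays kept one order, with replicate 1 lowest and replicate 2 highest. Of the 10 largest differences named here and below, AT5G05220 and AT1G07590 had dex replicate 3 highest and AT5G39520 had it lowest, and the others kept that order.

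SIS, which RefSeq lists as salt induced serine rich, was at 9.96 in replicate 1 and at 6.08 and 6.11 in replicates 2 and 3 (14.6-fold), with 6.55, 7.96 and 7.77 in Col-0 dex. LTI30, a dehydrin below the 10 largest, was at 10.63 in replicate 1 and at 7.61 and 7.79 in replicates 2 and 3 (7.62-fold), with 8.52, 9.38 and 9.75 in Col-0 dex. AT5G05220, AT3G15670, AT1G07590, AT5G39520, AT1G05340 and AT3G17520 completed the 10 largest differences among genes whose replicates 2 and 3 lay within 0.5 of each other, between 11.6-fold and 19.4-fold higher in replicate 1. The sugar transporter genes SWEET4 and SAG29 were at 8.05 and 6.38 in replicate 1, against 5.86 and 5.90 for SWEET4 and 4.70 and 4.80 for SAG29 in replicates 2 and 3. The other 10 of the 12 measured genes of sugar and starch differed by less than 2-fold, and the median log2 difference of the list was 0.08.

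The 104 probe sets that were lower in replicate 1 were led by PDF1.2b, PDF1.2 and THI2.1, at 17.4-fold, 13.1-fold and 11.6-fold lower. AT1G54020, AT3G16530, AT4G16260, AT3G48640, SUFE2, AT1G13470 and AT5G18470 completed the 10 largest, between 5.70-fold and 3.15-fold lower. SUFE2, named for a role in the assembly of iron-sulfur clusters, was at 4.35 in replicate 1 and at 6.41 and 5.96 in replicates 2 and 3, with 4.72, 4.71 and 4.83 in Col-0 dex.

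The higher and the lower set differed in which arrays stood outside the rest. In the higher set, replicate 1 lay outside the range of all 11 other arrays for 181 of 192 probe sets, and replicates 2 and 3 lay outside that of the other 10 for 15. In the lower set replicate 1 lay outside the range for 26 of 104, and replicates 2 and 3 lay outside for 52. Of all probe sets, replicate 1 lay outside for 19.0% and replicates 2 and 3 for 4.54%, and both sets were chosen for a gap between these arrays, so the counts are a description without a test. Relative to replicates 2 and 3, the median of the lower set was -1.23, -0.88 and -0.97 in the 3 Col-0 dex arrays, close to the -1.24 of replicate 1 itself, and between -1.42 and -0.27 in the 6 arrays of the lines. The median of the higher set was 0.27, 0.55 and 0.42 in the Col-0 dex arrays, against 1.44 in replicate 1, and between -0.15 and 0.11 in the lines.

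The added array controls were bright in replicate 1. All 18 probe sets of the hybridisation controls bioB, bioC, bioD and cre, which are added in fixed amounts before hybridisation, were highest in replicate 1 of all 12 arrays, by a median log2 difference of 0.72 from replicates 2 and 3. The 24 probe sets of the labelling controls dap, lys, phe and thr were all higher than in replicates 2 and 3, by a median of 1.08, and highest of the 12 arrays for 19. In the dex group all 24 labelling controls were also highest in replicate 1. The 25S ribosomal RNA probe set read 11.10, 11.26 and 11.40 in Col-0 dex, and 11.74, 10.43 and 10.37 in Col-0 estr. It read between 11.21 and 11.46 in CHLD dex and between 11.86 and 12.33 in CHLM estr, so that replicate 1 lay inside the range of the other arrays and replicates 2 and 3 lay below all of them. Signs of RNA breakdown did not single replicate 1 out, with a 3′ minus 5′ difference for actin of 1.43, against 1.41 and 1.65 in replicates 2 and 3 and between 1.29 and 1.45 in Col-0 dex. The part of the control probe sets in the differences of replicate 1 was not tested.

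Across the lists of genes with a shared role, 3 of 317 distinct measured members changed with all arrays (XTH19, EXPB1 and AT4G33980), which is 0.946% against 0.0484% of all probe sets. Without replicate 1, 24 changed (7.57%, against 3.2% of all probe sets). At an unadjusted p under 0.05 limma gave 51 with all arrays (16.1%, against 10.6%) and 75 without replicate 1 (23.7%, against 16.1% of all probe sets). The lists were chosen with earlier results of these data known, so nothing is read from these shares. Members were matched only to probe sets with 1 gene in the annotation, and those count as measured here. Many listed loci had no such probe set: 10 of 53 cold and dehydration loci and 9 of 35 tetrapyrrole loci were measured. Over all probe sets the median log2 difference was 0.00 with all arrays and 0.00 without replicate 1, and the median of replicate 1 minus replicates 2 and 3 was -0.01.

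Of 6 measured genes on the list of jasmonate defence, 0 changed with all arrays (5 at an unadjusted limma p under 0.05). Without replicate 1, 3 fell in Col-0 dex (PDF1.2, PDF1.2b and THI2.1), and the median log2 difference of the list was -1.70. On the wider list of 15 measured defensin and thionin genes, 3 fell without replicate 1 and the median was -0.05. The median of replicate 1 minus replicates 2 and 3 was -0.06 on that wider list. Of all probe sets, 10.6% reached that p and 1.98% fell without replicate 1. The other 3 did not pass in either fit: THI2.2 had 9.55, 9.71 and 9.45 in Col-0 dex and 9.90, 9.80 and 10.07 in Col-0 estr, PDF1.4 was at a log2 difference of 0.79 (limma adjusted p = 0.213), and LCR67 was near the bottom of the scale at 3.25 to 3.31 in all 6 arrays. Among enzymes and signalling genes of jasmonate itself, 0 of 6 changed in either fit (1 at an unadjusted p under 0.05). These 6 were only 3 of 17 synthesis loci and 3 of 22 signalling loci on the lists, so most of the pathway was not examined. JMT, which makes methyl jasmonate, had 3.82, 4.26 and 3.82 in Col-0 dex and 4.98, 4.55 and 4.58 in Col-0 estr (limma adjusted p = 0.121), with replicate 1 the highest of these 6 arrays. In the lines JMT was at 6.31, 5.85 and 6.47 in CHLD dex and at 4.40, 4.24 and 4.30 in CHLM estr.

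All 10 measured genes of the cold and dehydration response were higher in replicate 1 than in both replicates 2 and 3, by a median of 0.85, where 8382 of all 22746 probe sets were. Without replicate 1, LTI30 and XERICO, a RING protein tied to abscisic acid levels, rose in Col-0 dex, and with it 0 of 10 changed (0 at an unadjusted p under 0.05 as well). XERICO had 9.03, 9.05 and 8.87 in Col-0 dex and 9.13, 8.36 and 8.40 in Col-0 estr (1.52-fold without replicate 1, limma adjusted p = 0.0131). COR47, a dehydrin, had 12.38, 12.43 and 12.44 in Col-0 dex and 12.81, 11.86 and 11.97 in Col-0 estr (limma adjusted p = 0.127 without replicate 1). The mean over the 10 members was 8.05, 8.47 and 8.36 in Col-0 dex and 9.40, 7.76 and 7.82 in Col-0 estr.

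Of 9 measured genes that rise in the dark or when sugar is short, 0 changed with all arrays (4 at an unadjusted p under 0.05) and 4 rose in Col-0 dex without replicate 1, where 10.6% of all probe sets reached that p and 1.22% rose. AT5G39520 had 7.86, 8.03 and 7.12 in Col-0 dex and 9.69, 6.05 and 5.85 in Col-0 estr (3.29-fold without replicate 1, limma adjusted p = 0.00186). AT3G15450 had 10.62, 11.10 and 11.07 in Col-0 dex and 10.70, 9.70 and 9.74 in Col-0 estr (2.31-fold, limma adjusted p = 0.0148). AT4G33150, the LKR/SDH enzyme of lysine breakdown, had 8.69, 8.88 and 8.31 in Col-0 dex and 9.73, 7.79 and 7.91 in Col-0 estr, and AKINBETA1, a subunit of the energy-sensing kinase SnRK1, was 1.45-fold higher without replicate 1. In replicate 1, 8 of the 9 lay above both other replicates, with MCCB as the exception. Of the 9 ATG8 genes, whose proteins build the autophagosome, 8 likewise lay above both, ATG8E alone rose in Col-0 dex without replicate 1 (1.46-fold, limma adjusted p = 0.0274), and 0 changed with all arrays (4 at an unadjusted p under 0.05). ATG8H had 6.90, 7.28 and 7.06 in Col-0 dex and 8.19, 6.62 and 6.65 in Col-0 estr.

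**Figure D5:**
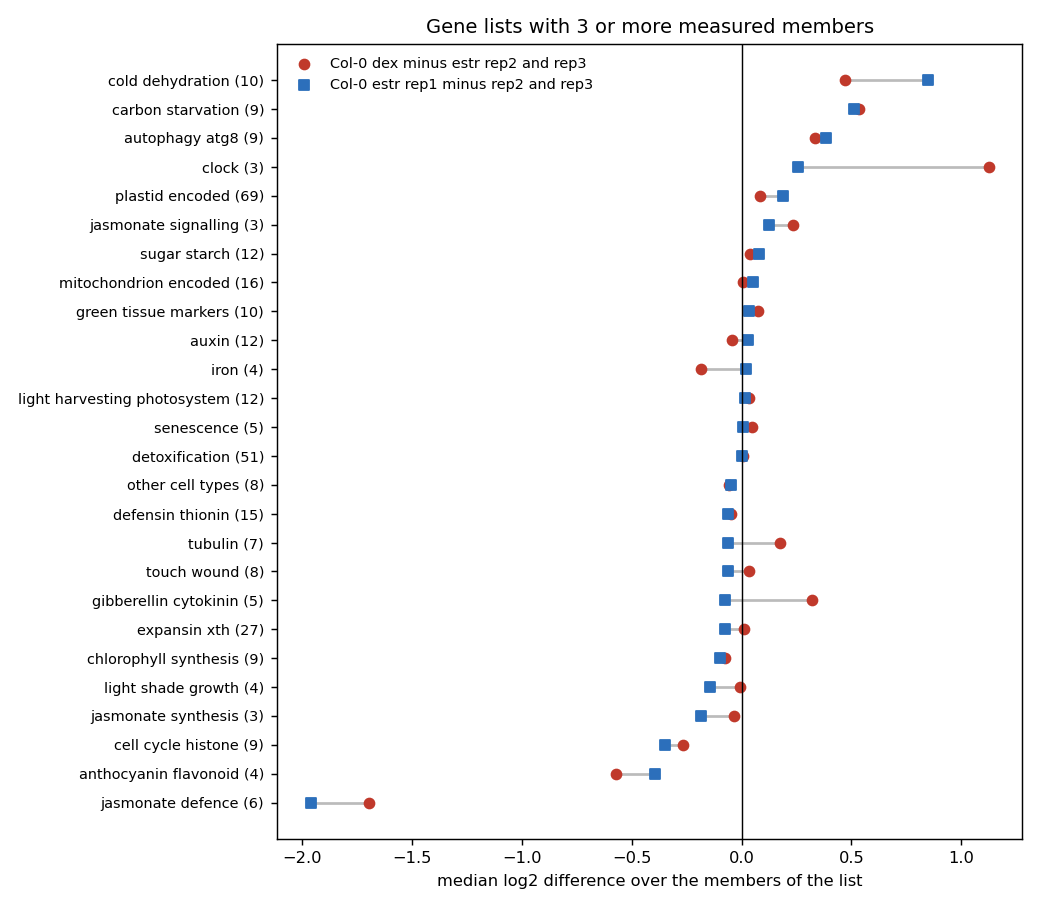
Median log2 difference over the measured members of each of the 26 gene lists with 3 or more (number in brackets), for Col-0 dex minus estr rep2 and rep3 (red circles) and for Col-0 estr rep1 minus the same rep2 and rep3 (blue squares). The symbols share estr rep2 and rep3 and so are not independent; jasmonate defence is the lowest list for both, and cold and dehydration the highest for rep1, at 0.85.

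Of 9 genes of cell division and histones, 3 fell and 0 rose in Col-0 dex without replicate 1, and 0 changed with all arrays (3 at an unadjusted p under 0.05). Of all probe sets, 1.98% fell and 1.22% rose without replicate 1, and 10.6% reached that p with all arrays. HTB2, which encodes a histone H2B, had 7.92, 7.70 and 7.86 in Col-0 dex and 8.42, 8.89 and 9.01 in Col-0 estr. Its groups did not overlap, and it missed the threshold with all arrays (log2 difference -0.95, SE 0.168, limma adjusted p = 0.0501). Another H2B gene, HTB1, was 1.52-fold lower without replicate 1, and BUB3.1, a spindle checkpoint protein, was 1.38-fold lower. Of 4 flavonoid genes DFR, an enzyme of anthocyanin synthesis, fell without replicate 1, with 5.17, 5.18 and 6.15 in Col-0 dex and 6.05, 6.81 and 6.94 in Col-0 estr (2.59-fold, limma adjusted p = 0.00473).

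In the family of expansins and xyloglucan enzymes 2 of 27 changed with all arrays, XTH19 and EXPB1, and EXPB3 joined them without replicate 1 at 1.49-fold lower. XTH18 was lowest of the 6 arrays in estr replicate 1, at 5.65, with the dex arrays between 6.79 and 7.52, and did not pass in either fit. Of 51 measured genes of detoxification, enzymes and pumps that handle foreign compounds, 0 changed with all arrays (1 at an unadjusted p under 0.05) and UGT76B1 alone without replicate 1. Of the 9 measured enzymes of tetrapyrrole synthesis (of 35 loci listed), the pathway altered in the lines, 0 changed in either fit. The same held for the measured list members of light harvesting and carbon fixation (12), auxin (12) and brassinosteroid (2). It also held for those of iron (4 of 32 loci listed) and of touch and wounding (8). Genes outside the lists were not counted here. Of the 47 members of these 6 lists limma gave 4 at an unadjusted p under 0.05 with all arrays (8.51%, against 10.6% of all probe sets) and 7 without replicate 1 (14.9%, against 16.1%). The 6 were pooled because none of their members changed, so nothing is read from these shares. With all arrays the 4 were 2 of 4 iron, 1 of 12 auxin and 1 of 8 touch genes. Without replicate 1 the 7 were 3 of 9 tetrapyrrole, 2 of 8 touch, 1 of 12 auxin and 1 of 4 iron genes. Other lists also had no call, such as tubulin with 2 of 7 at that p in both fits. Plastid transcripts gave 0 of 69 with all arrays and 1 without replicate 1 (matK, 1.38-fold lower), with 5 at an unadjusted p under 0.05 in the fit of all arrays. The remaining list members that changed without replicate 1 were nad4L, a mitochondrial subunit of complex I, and EIN3, a transcription factor of the ethylene response, at 1.42-fold and 1.32-fold higher.

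Calls made without replicate 1 also rested on single arrays. The 728 became 336 without dex replicate 1, 280 without dex replicate 2, 490 without dex replicate 3, 62 without estr replicate 2 and 45 without estr replicate 3, where the last 2 fits keep a single estradiol array, which is assumed to vary like the arrays of the other groups. PDF1.2, PDF1.2b, COR27, AT5G19120, AT3G16530, AT4G16260 and AT1G13470 passed in each of these fits, the highest adjusted p among them being 0.0349. AT5G39520 and HTB2 lost their calls without estr replicate 3 (adjusted p = 0.0602 each). LTI30, SIS and PUB19 kept theirs only without dex replicate 1, AT3G15450 only without dex replicate 1 or 3, and AKINBETA1, EXPB3, nad4L and EIN3 in none. UGT76B1, JAL23, DFR, WSD1 and HTB1 passed without each of the dex arrays and not without either estradiol array (adjusted p up to 0.184). XERICO passed without dex replicate 1 or 3, BUB3.1 only without dex replicate 2, AT4G33150 only without dex replicate 3, and ATG8E and matK only without dex replicate 1. With a dex array left out, AT1G47400 passed only without dex replicate 2, and AT5G03350 and AT3G22240 passed without each of them. A trended and robust variance model gave adjusted p between 0.0687 and 0.149 for THI2.1, AT1G54020, AT3G48640, LTI30, SIS, PUB19, AT3G15450 and JAL23, above the threshold. For AT5G03350, AT1G47400 and AT3G22240 that model gave adjusted p of 0.0625, 0.126 and 0.0616, also above it.

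The comparison of CHLD dex with CHLM estr holds the same agents on other plants and shares no array with the Col-0 comparison. It gave 914 changed probe sets (4.02%), of which 515 (2.26%) were higher and 399 (1.75%) lower in CHLD dex. The total was 1441 without Col-0 estr replicate 1, 597 without CHLD dex replicate 2, 508 without CHLD dex replicate 3 and 530 without CHLM estr replicate 1. Across probe sets, which are not independent, its log2 differences were correlated at 0.211 with those of Col-0, and at 0.204 without replicate 1. Of the 728 probe sets, 522 (71.7%) had the same sign in the lines, against 59.2% of all probe sets. The fit without replicate 1, which called 1441 in the lines, gave 179 of the 728 changed there in the same direction and 34 in the opposite one. Of all 22746 probe sets, that fit gave 1013 in the same direction and 428 in the opposite one. Among the 11 changed with all arrays, 10 had the same sign and 3 passed, AT1G31690 (-0.92, limma adjusted p = 0.00489) and 2 of those without a single gene (1.21 and -0.40, limma adjusted p = 0.00244 and 0.0366). XTH19 was at 0.24 (limma adjusted p = 0.481) and EXPB1 at 0.04 (limma adjusted p = 0.904) in the lines.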

How the data were processed

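RNA of green tissue was labelled from 100 ng and measured on 12 one-colour Affymetrix arrays. The deposited values are log2 signals that, per the submitters' processing notes, the authors took from Affymetrix Expression Console. Version, summary method and normalization are not given in the sources used here, and base 2 was inferred from the range of values. Replicates follow the labels' numbers, and p-values measure the spread between these samples.

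All 12 columns were fitted as deposited in 1 limma model of 4 group means (R 4.3.3, limma 3.58.1; 8 residual and 6.05 prior degrees of freedom), with two-sided tests and Benjamini-Hochberg adjustment over 22746 probe sets. The fit was also run on simulated data with independent normal noise on all 12 arrays and no outlying array. That run does not bear on how the calls depend on estr replicate 1. No file gives slide or scan times, so batches could not be examined, and arrays limit precision by their number.

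The annotation gave 1 gene to 13513 probe sets, several to 503 and none to 8730, and 13484 of the single genes were found in RefSeq (TAIR10.1). For 147 genes with several probe sets the brightest stands. The rule named CHLM, the 10 largest rises and falls past the threshold without overlap, the 10 largest differences of estr replicate 1 in each direction where replicates 2 and 3 differed by under 0.5, and up to 4 members of each list. Probe sets without a gene and genes changed only without replicate 1 were named after their values were seen. The comparison, the 34 lists and their members were chosen with earlier results of these data known. Promoter sequences were not used here, so the planned motif search was not run. Leaving out arrays, a replicate block, other scalings, variance models, array weights and a filter on dim probe sets were tried.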

Additional observations from a re-analysis of the deposited data

How the results depend on the processing

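The 11 probe sets changed between Col-0 dex and Col-0 estr became 17 with only the 6 Col-0 arrays in the fit, 25 with a replicate block, 32 with each array centred on its median, 36 with a trended and robust variance model and 703 with array weights, where estr replicate 1 had the lowest weight of 12, 0.43. Leaving out 1 array gave between 0 and 728. All 11 were again called with the block, quantile normalization, centring and weights, and 9 of 11 with the 6 arrays and with the trended model. The 7 changed at least 2-fold became 14 with the block, 12 with centring and 75 with weights, and between 0 and 106 with an array left out. The 3 changed list members became 23 with weights and between 0 and 24 with an array left out. The 914 of CHLD dex against CHLM estr ranged between 508 and 1441 with an array left out. The 728 changed without estr replicate 1 became 1377 with the 5 remaining Col-0 arrays alone and between 45 and 490 with a further array left out, alternatives chosen after seeing the data. With a threshold of 1.5-fold, replicate 1 was higher for 541 probe sets and lower for 476. The 5 named genes changed with all arrays kept their direction in every alternative run. SIS, PUB19, AT5G39520 and AT4G33150, higher in Col-0 dex without replicate 1, were at log2 differences of -0.608, -0.548, -0.1 and -0.193 with replicate 1 kept and estr replicate 2 left out, and at -0.593, -0.218, -0.2 and -0.133 with replicate 3 left out. Same-numbered dex and estr arrays were correlated at -0.0099, -0.1305 and 0.0812 in their deviations from group means. These few values cannot settle whether the replicate numbers pair the arrays, and the main fit treats the arrays as unpaired. The planned fit of the lines with only the Col-0 arrays cannot exist, and the motif search was not run.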
